A study of Mus musculus with 13 samples.

Results

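The immediate early genes of neuronal activity Egr1, Egr2, Egr3, Egr4, Fos, Fosb, Junb, Arc, Nr4a1 and Npas4 were followed in brain RNA from a mouse model of transient stroke with and without microglia. These 10 genes were taken by symbol from the deposited group tables, where they were 10 of the 21056 genes found in all 4 tables. Every one of the 10 passed the filter on low counts. The 13 libraries came from male mice, each with an animal identifier of its own, in 4 groups: tMCAO_DE (n = 2), tMCAO_CON (n = 4), sham_DE (n = 4) and sham_CON (n = 3).

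All mice in the 4 groups carried CX3CR1creER/+ and the Cre-dependent diphtheria toxin receptor allele Rosa26iDTR/+, and all received 2 doses of tamoxifen by gavage at 7 to 8 weeks of age. The depleted groups (DE) received diphtheria toxin at 50 ng per g body weight on 3 days, starting 30 days later, and the control groups (CON) received normal saline. Transient middle cerebral artery occlusion (tMCAO) was made with a filament in the right internal carotid artery for 60 min and was set against sham surgery. The surgery text gives an age of 6 to 8 weeks, which cannot be joined with the tamoxifen schedule, so age at surgery is not stated here. The Cre is driven from the Cx3cr1 locus, which is active in microglia and in other mononuclear phagocytes, and control mice carry the same alleles. The sources used here do not give the time between occlusion and sampling, the brain part or the hemisphere. The number after Rosa differs between the genotype entries of the libraries, and these were read as 1 genotype. Replicate 4 of tMCAO_CON was placed by its title although its treatment entry reads sham surgery.

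Immediate early genes are switched on within minutes of synaptic input or growth factor signalling, without the need for new protein. Calcium entry and the ERK cascade activate the transcription factors CREB and SRF, which sit at their promoters beforehand. Most of the products are themselves transcription factors, and Arc is an effector at the synapse. In the brain these RNAs are short-lived and are widely used as a record of recent neuronal firing.

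By role, the EGR zinc finger transcription factors come first. In the GENCODE annotation of GRCm38, Egr1 lies on chromosome 18 from 34859823 to 34864984, Egr2 on chromosome 10 from 67535475 to 67542188, Egr3 on chromosome 14 from 70077203 to 70082614 and Egr4 on chromosome 6 from 85511121 to 85513589. Of the subunits of the AP-1 transcription factor, Fos lies on chromosome 12 from 85473890 to 85477273, Fosb on chromosome 7 from 19302696 to 19310051 and Junb on chromosome 8 from 84974484 to 84978718. Junb overlaps Prdx2 on the opposite strand, and the sources used here do not say whether counting used strand, so its counts are uncertain. The nuclear receptor Nr4a1 lies on chromosome 15 from 101254269 to 101274795, and the neuron-restricted transcription factor Npas4 on chromosome 19 from 4984355 to 4990316. The synaptic effector Arc lies on chromosome 15 from 74669083 to 74672570. None of the 9 genes besides Junb overlaps another annotated gene.

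RefSeq promoter windows of GRCm38.p6, from 250 bases before to 50 bases after the transcript start, were matched by symbol for 7 of the 10 genes, all but Egr1, Egr3 and Arc. The CREB core motif TGACG, searched on both strands, was present in a window of all 7 genes and in 20.8% of all 32817 windows. The full palindrome TGACGTCA, which holds TGACG and so overlaps with it, was in none of the windows of the 7 genes and in 1.79% of all windows. The SRF-binding CArG box was present in Egr2 alone of the 7 genes and in 1.63% of all windows. The EGR motif GCGNGGGCG was present in Fosb and Nr4a1 and in 5.56% of all windows. The AP-1 motif TGANTCA was in none of the 7 genes and in 7.81% of all windows. The letters TATAAA were in Fos, 33 bases before the start, and in Junb, at the annotated start itself, and in 13.6% of all windows. These are matches of letters and not measured binding. Motifs more than 250 bases before the start were not searched, so absence from a window is not absence from the gene. A gene was counted if any of its windows held the motif, whereas the shares are per window.

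The 250 bases before the start are shown for 3 genes that passed the test in at least 1 occlusion comparison, Egr2, Egr4 and Nr4a1, and for 2 that passed in neither, Fos and Npas4, so that the letters can be set beside the responses that follow. Capitals mark TGACG on either strand (read as CGTCA on the other) and, in Egr2, the CArG box. Egr2 has 5 annotated windows, and the one shown holds both motifs. They run 5′ to 3′ on the gene's own strand, at chr10:67537619-67537868 (plus) for Egr2, chr6:85513590-85513839 (minus) for Egr4, chr15:101266596-101266845 (plus) for Nr4a1, chr12:85473640-85473889 (plus) for Fos and chr19:4989972-4990221 (minus) for Npas4.
Egr2: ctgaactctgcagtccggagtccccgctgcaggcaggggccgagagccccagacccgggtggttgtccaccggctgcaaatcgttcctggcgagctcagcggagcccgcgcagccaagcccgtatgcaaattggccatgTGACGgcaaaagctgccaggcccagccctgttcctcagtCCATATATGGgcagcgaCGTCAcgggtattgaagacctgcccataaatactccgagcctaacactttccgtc
Egr4: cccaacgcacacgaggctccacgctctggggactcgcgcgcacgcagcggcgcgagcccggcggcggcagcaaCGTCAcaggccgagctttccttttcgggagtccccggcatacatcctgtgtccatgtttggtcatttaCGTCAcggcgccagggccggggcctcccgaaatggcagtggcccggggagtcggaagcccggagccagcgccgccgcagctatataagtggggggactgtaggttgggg
Nr4a1: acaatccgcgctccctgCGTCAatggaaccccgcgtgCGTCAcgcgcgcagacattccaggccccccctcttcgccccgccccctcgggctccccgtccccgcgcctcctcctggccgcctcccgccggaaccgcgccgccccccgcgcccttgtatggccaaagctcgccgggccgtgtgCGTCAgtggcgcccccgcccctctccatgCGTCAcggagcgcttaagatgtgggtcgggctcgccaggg
Fos: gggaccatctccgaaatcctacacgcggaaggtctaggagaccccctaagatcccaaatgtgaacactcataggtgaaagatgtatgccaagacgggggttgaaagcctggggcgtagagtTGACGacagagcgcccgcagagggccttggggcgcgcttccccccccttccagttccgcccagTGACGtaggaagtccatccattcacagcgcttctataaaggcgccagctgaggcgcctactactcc
Npas4: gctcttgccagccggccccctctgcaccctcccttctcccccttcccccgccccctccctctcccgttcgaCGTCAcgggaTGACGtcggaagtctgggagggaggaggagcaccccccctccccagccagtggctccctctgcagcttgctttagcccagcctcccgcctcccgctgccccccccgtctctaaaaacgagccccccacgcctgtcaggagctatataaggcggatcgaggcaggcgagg

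Nr4a1 held 4 copies of TGACG in its window, while Egr2, Egr4, Fos and Npas4 held 2 each. Fosb and Junb held 1 each and are not shown.

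Libraries held 16239763 to 22080367 counts over the shared genes, and 16940 genes were tested. Depletion was visible in 10 microglial markers, whose summed level, in CPM (counts scaled to a common library size, here without a further factor), was 49.5 to 54.0 in tMCAO_DE, against 301 to 396 in tMCAO_CON, and 39.0 to 67.8 in sham_DE, against 285.5 to 299 in sham_CON. General neuronal markers were present in every library, at summed levels of 7546 to 7731 CPM in tMCAO_DE, 8234 to 8802 in tMCAO_CON, 8339 to 9473 in sham_DE and 9219 to 9660 in sham_CON. Striatal projection neuron markers summed to 431 to 461 CPM in tMCAO_DE and to 159 to 266 in the other 3 groups. Of these 8 markers, 1 was called higher in tMCAO_DE against sham_DE and 1 against tMCAO_CON. The median log2 fold changes of the list were -0.09 and -0.14, so the higher sum is not a rise across the list. Mitochondrial genes took 7.84% to 8.74% of counts in DE libraries and 9.03% to 9.86% in CON libraries. Replicate 2 of sham_CON and replicate 3 of sham_DE held the most neutrophil and monocyte markers, at 32.4 and 32.7 CPM in sum. They are called neutrophil-rich here, although the list mixes both cell types. Erythrocyte markers summed to 5.91 to 7.58 CPM in tMCAO_DE and 0.686 to 38.9 in tMCAO_CON. They summed to 1.02 to 31.1 CPM in sham_DE and 2.13 to 29.2 in sham_CON. The source of these marker RNAs was not tested. Replicate 2 of sham_DE stands apart in the activity genes themselves, so the calls and fitted changes in tMCAO_DE against sham_DE are also given without it.

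The first comparison asked how the activity genes respond to occlusion when microglia are present. In tMCAO_CON brains 5 of the 10 genes fell against sham_CON brains and none rose. They were Egr1, Egr3, Egr4, Nr4a1 and Arc, with levels 2.02-fold to 2.78-fold lower. The fitted change was below 0 for all 10 genes, with a median log2 fold change of -1.03, against 0.017 over all 16940 genes tested, of which 47.3% were below 0. Across all genes 3.31% were called lower, 5.14% higher and 8.44% in either direction. With limma on log2 FPKM the split over all genes was less even, with 1522 of 1785 calls higher, against 870 of 1430 in edgeR. The 4 tMCAO_CON libraries were all below the 3 sham_CON libraries in 9 of the 10 genes, where 10.5% of all genes separated in that direction. Levels of single genes are CPM with TMM factors, changes are log2 fold changes with their standard error (SE), and a call is an adjusted p below 0.05 in edgeR's quasi-likelihood test.

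The second comparison asked the same with microglia depleted. In tMCAO_DE brains all 4 EGR genes fell against sham_DE brains, and the other 6 activity genes did not pass the test. The background was 5.84% of all genes called lower, 6.59% higher and 12.4% in either direction. The median log2 fold change of the 10 genes was -0.73, against -0.001 over all genes, and 9 of the 10 were below 0, as were 50.1% of all genes. Both tMCAO_DE libraries were below all 4 sham_DE libraries in 7 of the 10 genes, where 17.7% of all genes separated in that direction. Fosb, 1 of these 7, was close to a tie, with its nearest libraries at 16.37 and 16.40 CPM. This comparison rests on 2 stroke libraries. In bulk tissue, fewer cells of a type and less RNA per cell cannot be told apart in either comparison.

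Among the EGR factors, Egr1, the most widely used activity marker of the family, had 137.5, 118, 196 and 177 CPM in tMCAO_CON, against 491, 374 and 447 CPM in sham_CON. With microglia depleted it had 205 and 209.5 CPM in tMCAO_DE, against 451, 837, 411 and 428 CPM in sham_DE. Neither pair of groups overlapped, and 1 sham_DE library, replicate 2, was far above its group. Egr1 fell 2.78-fold in tMCAO_CON (log2 fold change -1.48 ± 0.23 SE, edgeR adjusted p = 0.0025). It fell 2.57-fold in tMCAO_DE (log2 fold change -1.36 ± 0.28 SE, edgeR adjusted p = 0.0093).

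Egr3, which like Egr1 is induced by synaptic input, had 46.2, 38.55, 39.3 and 48.6 CPM in tMCAO_CON, against 101, 75.3 and 85.4 CPM in sham_CON. In depleted mice it had 55.95 and 59.1 CPM in tMCAO_DE, against 119, 131, 73.4 and 77.3 CPM in sham_DE. Occlusion libraries were again below every sham library of their pair, and the sham_DE libraries formed a higher and a lower pair. Egr3 fell 2.02-fold in tMCAO_CON (log2 fold change -1.01 ± 0.18 SE, edgeR adjusted p = 0.0057) and 1.74-fold in tMCAO_DE (log2 fold change -0.80 ± 0.22 SE, edgeR adjusted p = 0.03).

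Egr4, a neuron-enriched member of the family, had 11.75, 7.86, 14.8 and 17.4 CPM in tMCAO_CON, against 35.9, 29.85 and 30.8 CPM in sham_CON. It had 16.8 and 12.4 CPM in tMCAO_DE, against 30.8, 44.3, 23.2 and 25.1 CPM in sham_DE. The groups of each pair did not overlap. Egr4 fell 2.49-fold in tMCAO_CON (log2 fold change -1.31 ± 0.25 SE, edgeR adjusted p = 0.0074) and 2.12-fold in tMCAO_DE (log2 fold change -1.08 ± 0.30 SE, edgeR adjusted p = 0.033).

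Egr2, known also for its role in myelinating Schwann cells, was the lowest of the 10 genes per kb of exon in both tMCAO groups and had the largest coefficient of variation of the 10 in sham_DE, at 79.6%, against 20.4% without replicate 2. It had 0.717, 2.59, 3.71 and 2.38 CPM in tMCAO_CON, against 10.6, 4.13 and 5.93 CPM in sham_CON. It had 3.72 and 3.09 CPM in tMCAO_DE, against 13.25, 46.1, 15.1 and 9.98 CPM in sham_DE. The occlusion libraries lay below every sham library in both pairs, and the smallest count behind a value was 13, in tMCAO_CON replicate 1. Egr2 fell 6.22-fold in tMCAO_DE (log2 fold change -2.64 ± 0.67 SE, edgeR adjusted p = 0.023), and 3.75-fold without sham_DE replicate 2 (log2 fold change -1.91, edgeR adjusted p = 0.031). In tMCAO_CON the log2 fold change was -1.56 ± 0.57 SE and did not pass (edgeR adjusted p = 0.11).

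**Figure D1:**
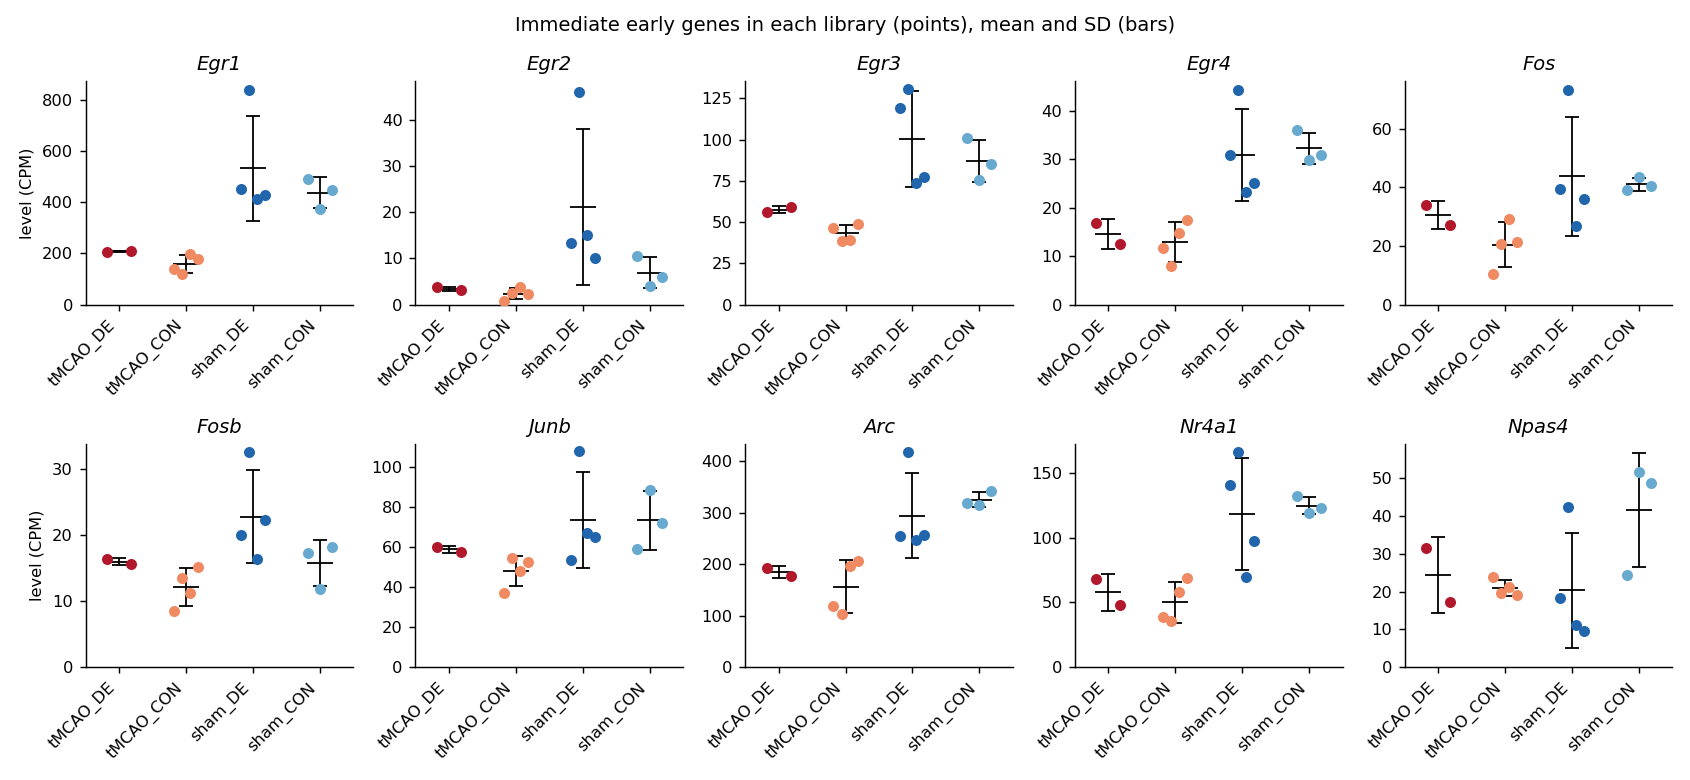
Level of each of the 10 activity genes in CPM (vertical axes, each starting at 0) in the groups tMCAO_DE, tMCAO_CON, sham_DE and sham_CON, with 1 point per library, the mean as a horizontal mark and the SD as whiskers. Egr1, Egr2, Egr3, Egr4, Arc and Nr4a1 show occlusion libraries below the sham libraries of their own pair, while 1 sham_DE library, replicate 2, is the highest of its group in every panel.

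Of the AP-1 subunits, none passed the test in either comparison. Fos, the best known of them, had 10.5, 20.6, 29.3 and 21.3 CPM in tMCAO_CON, against 39.2, 43.55 and 40.55 CPM in sham_CON. It had 33.9 and 27.1 CPM in tMCAO_DE, against 39.3, 73.2, 26.7 and 35.9 CPM in sham_DE. The CON groups did not overlap, whereas the DE groups did. The log2 fold change of Fos was -1.01 ± 0.32 SE in tMCAO_CON (edgeR adjusted p = 0.072) and -0.52 ± 0.37 SE in tMCAO_DE (edgeR adjusted p = 0.39).

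Junb, a JUN family partner of FOS proteins, had 37.2, 54.4, 48.2 and 52.6 CPM in tMCAO_CON, against 59.2, 88.6 and 72.1 CPM in sham_CON. It had 60.2 and 57.7 CPM in tMCAO_DE, against 53.4, 108, 67.3 and 64.9 CPM in sham_DE. Only the CON groups were separate. Its log2 fold change was -0.61 ± 0.21 SE in tMCAO_CON (edgeR adjusted p = 0.094) and -0.32 ± 0.24 SE in tMCAO_DE (edgeR adjusted p = 0.42).

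Fosb, whose truncated product accumulates with repeated stimulation, had 8.61, 13.6, 11.3 and 15.2 CPM in tMCAO_CON, against 17.3, 11.9 and 18.3 CPM in sham_CON. It had 16.4 and 15.65 CPM in tMCAO_DE, against 20.1, 32.7, 16.4 and 22.3 CPM in sham_DE. It was the 1 gene whose CON groups overlapped. Its DE groups were separate only by 16.37 CPM in tMCAO_DE replicate 1 against 16.40 CPM in sham_DE replicate 3. Its log2 fold change was -0.38 ± 0.24 SE in tMCAO_CON (edgeR adjusted p = 0.36) and -0.52 ± 0.27 SE in tMCAO_DE (edgeR adjusted p = 0.23).

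Nr4a1, an orphan nuclear receptor induced by calcium entry, had 38.5, 35.4, 58.2 and 68.6 CPM in tMCAO_CON, against 132, 119 and 123 CPM in sham_CON. It had 67.8 and 47.7 CPM in tMCAO_DE, against 165.9, 69.4 and 97.4 CPM in sham_DE replicates 2 to 4, with sham_DE replicate 1, at 2608 counts, between the 97.4 and the 165.9 CPM. The CON groups were far apart, and the DE groups were separated by a narrow gap. Nr4a1 fell 2.49-fold in tMCAO_CON (log2 fold change -1.31 ± 0.28 SE, edgeR adjusted p = 0.012). In tMCAO_DE its log2 fold change was -1.04 ± 0.33 SE and did not pass (edgeR adjusted p = 0.056).

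Arc, which drives removal of AMPA receptors from the synapse, had 119.6, 104, 197 and 206 CPM in tMCAO_CON, against 319.7, 314 and 342 CPM in sham_CON. It had 194 and 177 CPM in tMCAO_DE, against 255, 419, 248 and 256.5 CPM in sham_DE. The groups of both pairs were separate, and the tMCAO_CON libraries split into a lower and a higher pair. Arc fell 2.07-fold in tMCAO_CON (log2 fold change -1.05 ± 0.23 SE, edgeR adjusted p = 0.015). In tMCAO_DE its log2 fold change was -0.67 ± 0.27 SE and did not pass (edgeR adjusted p = 0.13).

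Npas4, induced by calcium entry in neurons and by few other stimuli, did not pass in either comparison. It had 23.7, 19.7, 21.2 and 19.2 CPM in tMCAO_CON, against 24.3, 51.6 and 48.6 CPM in sham_CON. It had 31.5 and 17.2 CPM in tMCAO_DE, against 18.2, 42.3, 11.1 and 9.69 CPM in sham_DE. The CON groups were separated by a gap of under 1 CPM, and the DE groups overlapped widely. The log2 fold change was -0.99 ± 0.42 SE in tMCAO_CON (edgeR adjusted p = 0.17) and 0.25 ± 0.48 SE in tMCAO_DE (edgeR adjusted p = 0.78). Without sham_DE replicate 2 the tMCAO_DE value was 0.91 (edgeR adjusted p = 0.11).

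**Figure D2:**
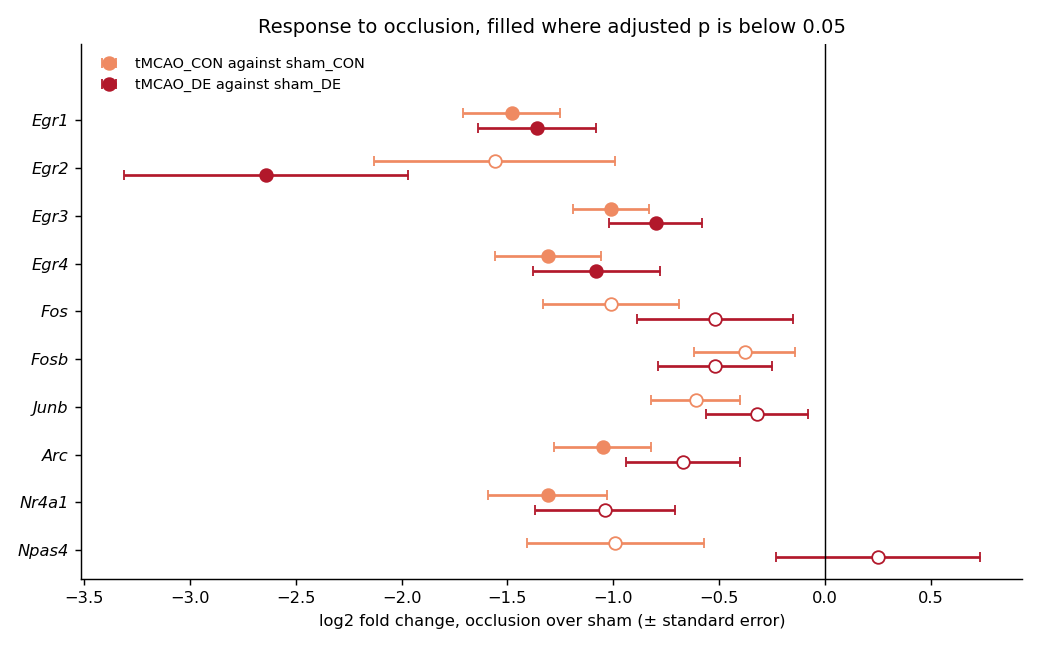
Log2 fold change of each activity gene with its standard error (horizontal axis, occlusion over sham) in tMCAO_CON against sham_CON and in tMCAO_DE against sham_DE, filled where the edgeR adjusted p is below 0.05. Egr1, Egr3 and Egr4 are filled in both comparisons, Egr2 in the depleted mice alone, Arc and Nr4a1 in the control mice alone, and Npas4 in tMCAO_DE is the 1 point above 0. A filled and an open symbol of 1 gene are not shown to differ.

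The number of calls depended on single libraries. In the CON comparison 5 genes were called, and leaving out sham_DE replicate 2, which enters through the shared estimate of spread alone, raised the number to 9, all but Fosb, while leaving out sham_CON replicate 3 gave 4, with Arc at an edgeR adjusted p of 0.06. In the DE comparison 4 were called, and 0 without tMCAO_DE replicate 1 and 0 without tMCAO_DE replicate 2, where Egr1 had edgeR adjusted p = 0.083 and 0.086 with 1 stroke library left. The number was 2 without sham_DE replicate 1 and 2 without sham_DE replicate 2, Egr1 and Egr2 each time. The latter fit gave log2 fold changes of -1.05 for Egr1, -0.65 for Egr3, -0.85 for Egr4 and -0.83 for Nr4a1. They were -0.45 for Arc, -0.29 for Fosb, -0.16 for Fos and -0.07 for Junb, with Egr2 and Npas4 given above. Nr4a1 gained a call in the DE comparison under 5 alternatives. These were DESeq2 (adjusted p = 0.031) and, in edgeR, leaving out sham_DE replicate 3 (adjusted p = 0.022), tMCAO_CON replicate 2 (0.049), tMCAO_CON replicate 4 (0.05 after rounding) or both neutrophil-rich libraries (0.03). Leaving out tMCAO_CON replicate 4, whose entries conflict, left 5 calls in the CON comparison and 5 in the DE comparison. With both neutrophil-rich libraries left out the numbers were also 5 and 5. Of 10 general neuronal markers, 2 fell in tMCAO_CON (median log2 fold change -0.17) and 2 in tMCAO_DE (median -0.28). Over all genes 3.31% and 5.84% were called lower. Of 8 excitatory cortical markers 1 fell in tMCAO_CON and 0 in tMCAO_DE (medians -0.13 and -0.06). Of 6 inhibitory markers 0 fell in either (medians -0.10 and -0.10). The part of neuronal markers in the result was not tested.

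Whether depletion changed the response to occlusion was asked with the interaction of both factors. In edgeR 0 of the 10 genes passed, 0 had an unadjusted p below 0.05, and DESeq2 and limma on log2 FPKM also called 0, while 0.0472% of all genes were called. The largest interaction was that of Npas4, at a log2 value of 1.24 ± 0.64 SE (edgeR adjusted p = 0.55). That of Egr2 was -1.08 ± 0.86 SE (edgeR adjusted p = 0.72), and the other 8 lay between -0.14 and 0.48. The standard errors were 0.28 to 0.86, and the Npas4 value, well above its standard error, was not called. Differences between the responses larger than these standard errors can also go undetected at this number of libraries.

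Depletion was then compared within each kind of surgery. After occlusion, tMCAO_DE against tMCAO_CON, 0 of the 10 genes passed in edgeR, 0 had an unadjusted p below 0.05 and DESeq2 and limma called 0, where 18.6% of all genes were called in either direction. All 10 log2 fold changes were above 0, between 0.17 for Egr4 and 0.58 ± 0.36 SE for Fos, with a median of 0.34 against -0.012 over all genes, of which 51.2% were below 0. Both tMCAO_DE libraries were above all 4 tMCAO_CON libraries for Egr1, Egr3, Fosb and Junb, 4 of 10, where 22.6% of all genes separated in that direction. When only these 6 libraries were fitted, Egr3 alone of the 10 was called (log2 fold change 0.41, edgeR adjusted p = 0.042). Calls were common in that fit, with 2955 genes called over all genes, against 3155 in the main fit (18.6%).

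Among sham mice, sham_DE against sham_CON, 0 of the 10 genes passed in edgeR, and DESeq2 and limma called 0, where 11.3% of all genes were called in either direction. Egr2, Npas4 and Fosb had an unadjusted edgeR p below 0.05, a threshold for which the share of all genes was not computed. None of the 10 genes had separate groups, as 22.9% of all genes had in either direction. Egr2 averaged 21.1 ± 16.8 CPM in sham_DE and 6.88 ± 3.32 CPM in sham_CON (SD, n = 4 and 3), with a log2 fold change of 1.62 ± 0.53 SE (edgeR adjusted p = 0.066). Npas4 averaged 20.3 ± 15.1 CPM in sham_DE and 41.5 ± 14.9 CPM in sham_CON (SD, n = 4 and 3), with a log2 fold change of -1.02 ± 0.42 SE (edgeR adjusted p = 0.13). The 2 genes thus differed in sign. Without sham_DE replicate 2, Npas4 was called lower (log2 fold change -1.67, edgeR adjusted p = 0.017), and without sham_DE replicate 1, Egr2 was called higher (1.79, edgeR adjusted p = 0.037). Without sham_DE replicate 2 the log2 fold change of Egr2 was 0.89 (edgeR adjusted p = 0.21). The other 8 genes had log2 fold changes between -0.14 for Arc and 0.53 for Fosb.

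Replicate 2 of sham_DE was the highest library of its group in 10 of 10 activity genes, where it was highest in 22.7% of all genes and stood apart above its group in 0.590%. Its level was 1.95 times the mean of the other 3 sham_DE libraries for Egr1, 3.61 times for Egr2, 2.15 times for Fos and 3.26 times for Npas4. Over the 10 genes, the median log2 CPM relative to each gene's mean of group means was -0.22 and -0.41 in tMCAO_DE and -0.90, -0.90, -0.45 and -0.27 in tMCAO_CON. It was 0.46, 1.05, 0.12 and 0.25 in sham_DE and 0.54, 0.47 and 0.48 in sham_CON. All occlusion libraries were below 0 and all sham libraries above it on this summary. The coefficient of variation lay between 28.1% for Arc and 79.6% for Egr2 in sham_DE, and between 4.44% for Arc and 48.3% for Egr2 in sham_CON. Without replicate 2 it lay between 1.81% for Arc and 35.2% for Nr4a1 in sham_DE. For Nr4a1 and Egr3 it changed little on leaving that library out, from 36.5% to 35.2% and from 29.1% to 28.3%. In sham_CON the same genes had 5.41% and 14.8%, so their wider spread in sham_DE does not rest on replicate 2.

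**Figure D3:**
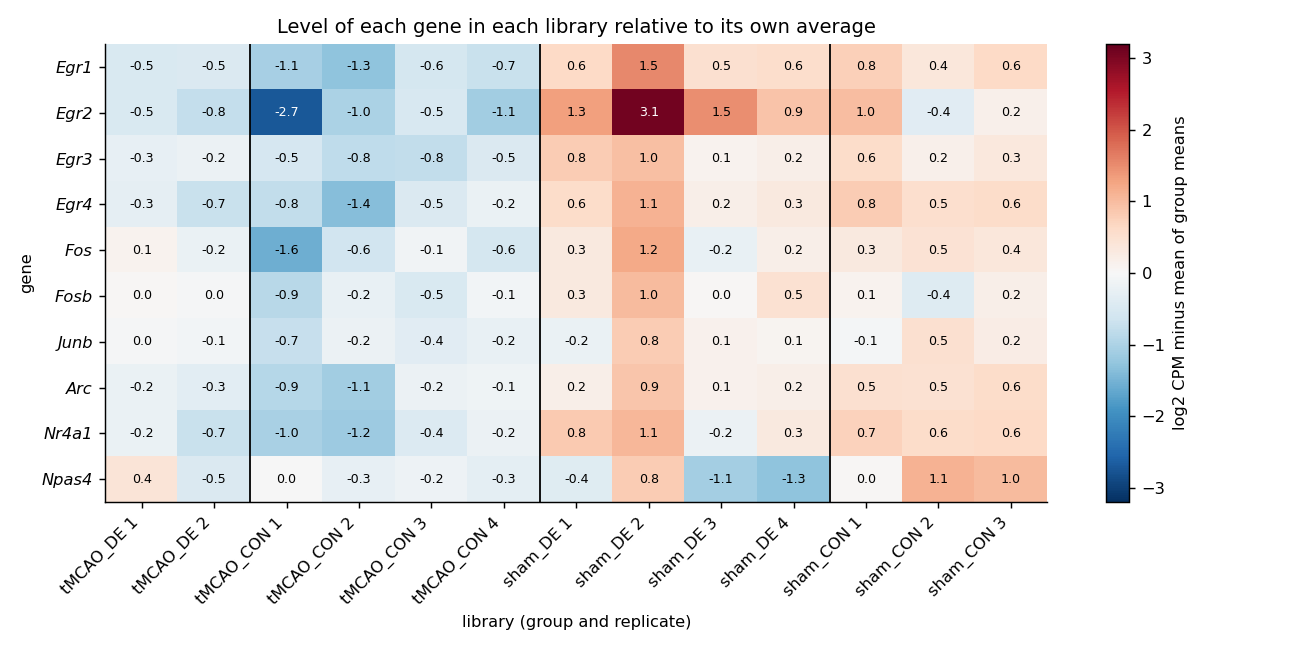
Log2 CPM of each activity gene in each library minus the mean of its 4 group means (colour and printed value), with libraries in columns and black lines between groups. The tMCAO columns are mostly below 0 and the sham columns mostly above, sham_DE replicate 2 is above 0 throughout and reaches 3.1 for Egr2, and Npas4 in sham_DE replicates 3 and 4 stands at -1.1 and -1.3.

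Levels were compared between genes per length of exon, in CPM per kb of the annotated exon union. On this scale Arc and Egr1 led in all 4 groups. In sham_CON Arc stood at 106 ± 4.72 and Egr1 at 97.6 ± 13.2 CPM per kb (SD, n = 3), and their libraries overlapped. Nr4a1 (35.6 ± 1.93) and Junb (31.9 ± 6.40) followed and overlapped. Egr3 (19.8 ± 2.92) came next, apart from Junb, and overlapped with Fos (17.5 ± 0.953), which overlapped with Egr4 (15 ± 1.52). Npas4 (10.03 ± 3.62) lay apart from Egr4 above it and from Fosb below it, and Fosb (2.54 ± 0.550) and Egr2 (2.02 ± 0.978) overlapped at the bottom. In both tMCAO groups Junb came before Nr4a1 in the order of means, apart from it in tMCAO_DE and overlapping with it in tMCAO_CON.

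The deposited FPKM values gave another order. In sham_CON they ran Arc, Egr3, Egr1, Nr4a1, Junb, Egr4, Npas4, Fos, Fosb and Egr2, with overlap between neighbours except between Junb and Egr4, Fos and Fosb, and Fosb and Egr2. In both tMCAO groups they began with Egr3, Arc, Junb and Egr1, and in sham_DE with Egr1, Egr3 and Arc. These neighbours overlapped except in tMCAO_DE. The gene length that the FPKM values imply was 1420 bases for Egr3, 0.322 times its exon union. It was 7543 bases for Egr1, 1.68 times its exon union and longer than its span of 5162 bases. For Arc and Fos it was 1.71 and 1.62 times the exon union, at 5214 and 3804 bases. Their spans are 3488 and 3384 bases. Of 9715 genes with a mean count of at least 200, 30.5% had an implied length above 1.5 times the exon union. The order between genes therefore depends on the length used. Differences between groups for 1 gene are not touched by this, since the implied length of a gene was the same in every library to within rounding.

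Genes with a similar course were sought among 14813 genes by the root-mean-square difference, over the 13 libraries, from the median course of the 10 genes on the log2 scale. The 8 nearest genes outside the 10 were Celsr1 (0.209), Col11a2 (0.222), Fmnl1 (0.251), Per2 (0.268), Dusp6 (0.272), Pja1 (0.28), Shank1 (0.283) and Unc13a (0.289). Among the activity genes themselves Arc ranked 1, Egr4 2, Nr4a1 3, Egr3 5, Egr1 12, Fos 14, Junb 58 and Fosb 105. Npas4 ranked 12017 and Egr2 13831. The median course was taken from these same 10 genes, so high ranks among them are partly built in. Per2, a clock gene, averaged 52.7 CPM in tMCAO_DE, against 114 CPM in sham_DE, and 52.9 CPM in tMCAO_CON, against 89.5 CPM in sham_CON. It fell in both comparisons (log2 fold change -1.11 ± 0.23 SE in tMCAO_DE, edgeR adjusted p = 0.0087, and -0.76 ± 0.19 SE in tMCAO_CON, edgeR adjusted p = 0.027). The first call ended without tMCAO_DE replicate 2, and the second without sham_CON replicate 1 or 3 or tMCAO_CON replicate 1 or 2. Unc13a, a presynaptic vesicle priming factor, fell as well (-0.91 ± 0.15 SE in tMCAO_DE, edgeR adjusted p = 0.0032, and -0.82 ± 0.13 SE in tMCAO_CON, edgeR adjusted p = 0.0023). Likeness was computed on these same libraries and describes them only.

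Related genes of the early response did not move as 1 block. Of 10 AP-1 partners and stress-linked early genes, 5 rose and none fell in tMCAO_CON (median log2 fold change 0.68), and 5 rose and none fell in tMCAO_DE (median 0.49). Over all genes the medians were 0.017 and -0.001, and 5.14% and 6.59% of genes were called higher. Leaving out single libraries gave 3 to 6 rises in the first and 1 to 5 in the second, with 1 left without tMCAO_DE replicate 2 and 3 without tMCAO_DE replicate 1. Atf3, a stress-induced transcription factor, averaged 7.63 ± 3.65 CPM in tMCAO_CON and 0.585 ± 0.527 CPM in sham_CON (SD, n = 4 and 3). It rose in tMCAO_CON (log2 fold change 3.66 ± 0.53 SE, edgeR adjusted p = 0.0015) and in tMCAO_DE (2.59 ± 0.48 SE, edgeR adjusted p = 0.0054). The sham_CON libraries held 22, 3 and 7 counts of it, and the tMCAO_CON log2 fold change was 4.68 without sham_CON replicate 1, 3.25 without replicate 2 and 1.68 with limma on log2(FPKM + 1). The call remained in every alternative. Fosl1, a FOS family member, had 179 counts over the 4 tMCAO_CON libraries and 2 counts over the 3 sham_CON libraries, a depth-scaled ratio of 62.0 with an exact 95% interval of 16.9 to 516 that covers counting error only. It was called higher in both comparisons (edgeR adjusted p = 0.0027 in tMCAO_CON and 0.015 in tMCAO_DE), the second call ending without tMCAO_DE replicate 2.

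Maff, a small MAF protein, averaged 5.38 ± 0.868 CPM in tMCAO_CON and 1.30 ± 0.143 CPM in sham_CON, and 10.8 ± 1.2 CPM in tMCAO_DE and 5.85 ± 0.894 CPM in sham_DE (SD, n = 4, 3, 2 and 4). It rose in tMCAO_CON (log2 fold change 2.04 ± 0.19 SE, edgeR adjusted p = 5.5e-05) and also in sham_DE against sham_CON (2.17 ± 0.19 SE, edgeR adjusted p = 0.00011). It rose in tMCAO_DE against sham_DE (0.88 ± 0.17 SE, edgeR adjusted p = 0.0072) and in tMCAO_DE against tMCAO_CON (1.01 ± 0.17 SE, edgeR adjusted p = 0.0035). Both of these calls ended without tMCAO_DE replicate 2 (edgeR adjusted p = 0.098 and 0.063). Jun, Jund and Fosl2, the partners closest to Fos, Fosb and Junb, did not pass in either occlusion comparison, with log2 fold changes between -0.33 and 0.45. Of 4 genes of the NR4A family and the EGR co-repressors, none passed in either. Nr4a2, the closest relative of Nr4a1 in the list, had a log2 fold change of -1.16 ± 0.39 SE in tMCAO_CON (edgeR adjusted p = 0.088).

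Most of the other rapid primary response genes did not pass the test. In tMCAO_CON 4 of 28 rose and 1 fell (median log2 fold change 0.24), and in tMCAO_DE 9 of 28 rose and none fell (median 0.39). Of all genes, 5.14% were called higher and 3.31% lower in the first comparison, and 6.59% higher and 5.84% lower in the second. Leaving out single libraries gave 2 to 8 rises in the first, the 2 without sham_CON replicate 1 and the 8 without tMCAO_CON replicate 1, and 3 to 9 in the second, the 3 without tMCAO_DE replicate 2. Zfp36, which speeds the decay of cytokine RNAs, rose in tMCAO_CON (1.5 ± 0.21 SE, edgeR adjusted p = 0.0011) and in tMCAO_DE (1.28 ± 0.21 SE, edgeR adjusted p = 0.0032). Gadd45g, a stress-inducible growth arrest gene, rose in both too (1.40 ± 0.22 SE, edgeR adjusted p = 0.0023, and 1.47 ± 0.22 SE, edgeR adjusted p = 0.0019). Their levels were low, at 17.6 ± 4.53 and 14.4 ± 4.05 CPM in tMCAO_CON and 6.2 ± 0.323 and 5.46 ± 0.397 CPM in sham_CON (SD, n = 4 and 3). The 1 fall in tMCAO_CON was that of Dusp1 (-0.82, edgeR adjusted p = 0.025), a call that ended under 6 of the alternatives.

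Of 28 delayed and secondary activity-regulated genes, 3 rose and 1 fell in tMCAO_CON (median log2 fold change -0.14), and 7 rose and 2 fell in tMCAO_DE (median -0.01). The shares of all genes called were 5.14% higher and 3.31% lower in tMCAO_CON, and 6.59% higher and 5.84% lower in tMCAO_DE. Leaving out single libraries gave 2 to 4 rises and 0 to 3 falls in tMCAO_CON, and 4 to 8 rises and 0 to 4 falls in tMCAO_DE, where either tMCAO_DE library left out gave 0 falls. Ptgs2, which encodes the inducible cyclooxygenase, rose in tMCAO_CON (1.27 ± 0.17 SE, edgeR adjusted p = 0.00081) and in tMCAO_DE (1.60 ± 0.18 SE, edgeR adjusted p = 0.00027). Cdkn1a, the cell cycle inhibitor p21, rose in both (1.90 ± 0.30 SE, edgeR adjusted p = 0.0023, and 1.8 ± 0.30 SE, edgeR adjusted p = 0.0029). The 1 fall in tMCAO_CON was that of Homer1 (-0.79, edgeR adjusted p = 0.037), a call that ended under 10 of the alternatives. In tMCAO_DE Dusp4 (-1.07, edgeR adjusted p = 0.02) and Dusp6 (-1.06, edgeR adjusted p = 0.025) fell. These calls ended under 3 and 4 of the alternatives. Bdnf, the neurotrophin that is a well-known later target of neuronal activity, had log2 fold changes of -0.06 ± 0.26 SE in tMCAO_CON (edgeR adjusted p = 0.92) and -0.28 ± 0.30 SE in tMCAO_DE (edgeR adjusted p = 0.59). Lingo3 was the 1 listed gene called in the interaction (0.80 ± 0.12 SE, edgeR adjusted p = 0.04), a call that ended under 13 of the alternatives.

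Upstream of these genes, 3 of 40 calcium, ERK, CREB and SRF signalling genes rose and 4 fell in tMCAO_CON (median log2 fold change -0.05), and 3 rose and 4 fell in tMCAO_DE (median -0.07). Over all genes 5.14% were called higher and 3.31% lower in tMCAO_CON, and 6.59% higher and 5.84% lower in tMCAO_DE. Leaving out single libraries gave 1 to 3 rises and 1 to 7 falls in tMCAO_CON, and 0 to 3 rises and 1 to 4 falls in tMCAO_DE. With tMCAO_DE replicate 1, tMCAO_DE replicate 2 or both neutrophil-rich libraries left out, 0 rises were called in tMCAO_DE. Camkk2, the kinase that activates calcium/calmodulin-dependent kinases, averaged 167.8 ± 22.9 CPM in tMCAO_DE and 298 ± 35.9 CPM in sham_DE (SD, n = 2 and 4), and 209.8 ± 10.2 CPM in tMCAO_CON and 366 ± 27.0 CPM in sham_CON (SD, n = 4 and 3). It fell in tMCAO_DE (-0.83 ± 0.11 SE, edgeR adjusted p = 0.0011) and in tMCAO_CON (-0.80 ± 0.10 SE, edgeR adjusted p = 0.00039). Its target Camk4, which phosphorylates CREB, fell in tMCAO_CON (-0.66 ± 0.13 SE, edgeR adjusted p = 0.0088), a call that ended without sham_CON replicate 3. It also fell in tMCAO_DE (-0.62, edgeR adjusted p = 0.021), a call that ended under 3 of the alternatives. Among the rises in tMCAO_CON were Elk1 (0.59, edgeR adjusted p = 0.0057) and Elk3 (0.79, edgeR adjusted p = 0.013). Elk3 rose in tMCAO_DE too (0.76, edgeR adjusted p = 0.021), and its calls ended under 2 and 5 of the alternatives. Of 10 synaptic partners and cargo of Arc, 3 fell and none rose in tMCAO_CON (median log2 fold change -0.19) and 3 fell and none rose in tMCAO_DE (median -0.14), where 3.31% and 5.84% of all genes were called lower. Leaving out single libraries gave 0 to 5 falls in tMCAO_CON, 0 of them without sham_CON replicate 3, tMCAO_CON replicate 2 or tMCAO_CON replicate 3, and 1 to 3 in tMCAO_DE. Gria2, an AMPA receptor subunit, fell in tMCAO_CON (-0.26 ± 0.06 SE, edgeR adjusted p = 0.022) and in tMCAO_DE (-0.51 ± 0.07 SE, edgeR adjusted p = 0.0015), and the tMCAO_CON call ended without sham_CON replicate 2 or 3 or tMCAO_CON replicate 2 or 3.

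**Figure D4:**
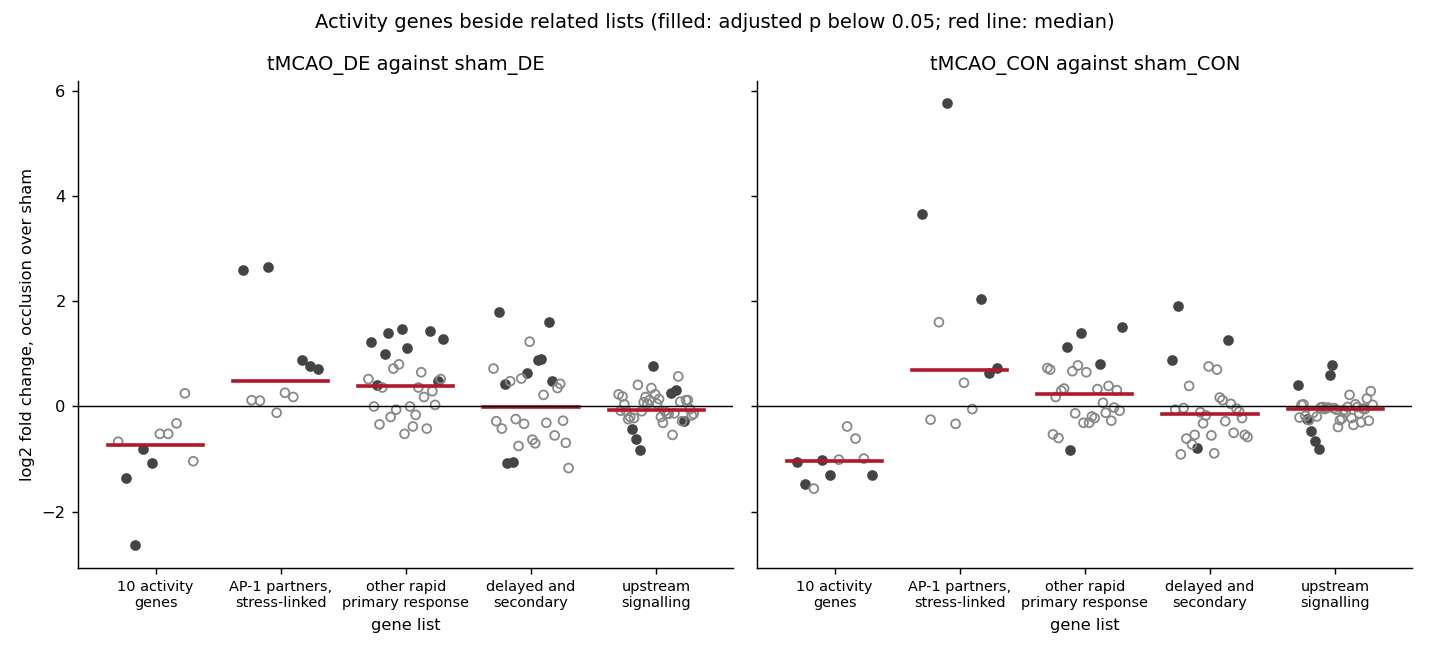
Log2 fold change (vertical axis) of the 10 activity genes and of 4 related lists, 1 point per gene, filled where the edgeR adjusted p is below 0.05, with the list's median in red, for tMCAO_DE against sham_DE and tMCAO_CON against sham_CON. The activity genes have medians of -0.73 and -1.03, while the AP-1 partners and stress-linked early genes have medians of 0.49 and 0.68. The point near 6 is Fosl1, whose fitted fold rests on 2 counts in sham_CON.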

How the data were processed

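The authors deposited 1 table per group with raw counts and FPKM per gene and library, per the file headers. The build mm10 and the tools Cufflinks (version 2.1.1) and Cuffdiff are named in the submitters' processing notes; aligner, annotation, counting tool and strand use: not given in the sources used here. Every column was mapped to a library by its name.

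The plan allowed for counts or FPKM, and since counts were there the count test was used. Of 21056 shared genes, 16940 passed filterByExpr (smallest group 2, count minimum 10) and 4116 did not. A model of 4 group means over 13 libraries was fitted with edgeR 4.0.16 in R 4.3.3 (quasi-likelihood test, TMM factors), two-sided, with Benjamini-Hochberg adjustment over all tested genes and a threshold of 0.05, in 5 comparisons. SE is the absolute log2 fold change over the square root of F. The common biological coefficient of variation was 15.2%. The procedure was tested on simulated data.

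All 10 members are described. From each related list, genes past the threshold with the largest changes could be named, up to 4 per comparison. Those whose calls held when single libraries were left out were preferred after their values were seen. Dusp1, Homer1, Dusp4 and Dusp6 were named so that falls are given too. Jun, Jund, Fosl2, Nr4a2 and Bdnf were added after their values were seen. The members and lists were chosen with earlier results of these data known. Motifs and exon unions were read from the RefSeq and GENCODE tables of GRCm38. Alternatives were other scalings, no filter, DESeq2 1.42.0, limma 3.58.1 on log2(FPKM + 0.1) and log2(FPKM + 1), fits of only the groups compared, a replicate block, and leaving out libraries.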

Additional observations from a re-analysis of the deposited data

Results flagged for a closer look

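In sham_DE, replicate 2 stood apart above its group in 3 of the 10 activity genes by a gap test within groups of 4. Egr1 reached 836.7 CPM there and 411 to 451 CPM in the other 3 libraries. Egr2 reached 46.1 CPM there and 9.98 to 15.1 CPM in the others. Arc reached 418.6 CPM there and 248 to 256.5 CPM in the others. Chance gives such a gap, for any library and on either side, in about 1 of 20 groups. Over all tested genes this library stood apart above its group in 0.590%, a share for 1 library and 1 side, so the shares are not alike. Its total was the largest of the 13 libraries, 22080367 counts, and its mitochondrial share of 7.84% the lowest. The part of depth or RNA quality in these levels was not tested.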

How the results depend on the processing

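Of the 1090 log2 fold changes of the 10 genes recomputed under alternatives, 1031 kept their direction and their side of the threshold, 17 lost a call, 16 gained one and 26 changed sign, all 26 in uncalled values. The number of genes called in tMCAO_CON against sham_CON was 8 with only the groups compared, 6 with DESeq2 and 4 to 9 when single libraries were left out (main value 5). In tMCAO_DE against sham_DE it was 1 with only the groups compared, 5 with DESeq2 and 0 to 5 (main value 4). In sham_DE against sham_CON it was 0 to 1 (main value 0), and in tMCAO_DE against tMCAO_CON 1 with only the groups compared (main value 0). The cause of these shifts was not tested, beyond fewer samples. Same-numbered libraries correlated between -0.0641 and 0.106 in their deviations, so the numbers were not taken to pair them. With a replicate block the numbers called were 5 and 3 for occlusion, against 5 and 4, and 0 in the other comparisons.

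The sign changes among the log2 fold changes arose as follows. When libraries were left out, the values in sham_DE against sham_CON ran between -0.024 and 0.387 for Egr1, -0.289 and 0.054 for Egr4, -0.273 and 0.314 for Fos, -0.245 and 0.202 for Junb and -0.282 and 0.112 for Nr4a1. In tMCAO_DE against tMCAO_CON they ran between -0.062 and 0.372 for Egr4, -0.073 and 0.434 for Nr4a1 and -0.282 and 0.590 for Npas4. Npas4 in tMCAO_DE against sham_DE ran between -0.250 and 0.905. In the interaction, Egr4 ran between -0.0011 and 0.461 and Fosb between -0.268 and 0.087. Junb in sham_DE against sham_CON had -0.00024 with upper quartile factors, -0.0012 without the filter, -0.0031 and -0.0024 with limma at pseudocounts of 0.1 and 1, and -0.016 with the replicate block. Npas4 in tMCAO_DE against tMCAO_CON had -0.003 with the replicate block.

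Over all genes, the number called in tMCAO_CON against sham_CON was 1430, of which 870 rose, and 1785 with limma on log2(FPKM + 0.1), of which 1522 rose. In tMCAO_DE against sham_DE it was 2106 (1116 higher) and 2141 with limma (1350 higher), and in tMCAO_DE against tMCAO_CON 3155 (1586 higher) and 3088 with limma (1242 higher). For the interaction it was 8, and 111 with DESeq2, 23 and 32 with limma and 2 with the replicate block. With only the groups compared it was 1137 in tMCAO_DE against sham_DE and 645, against 1921, in sham_DE against sham_CON. With the replicate block it was 1341 and 823 in these. Fitting only the groups compared gave 1278 in tMCAO_CON against sham_CON and 2955 in tMCAO_DE against tMCAO_CON. Leaving out single libraries gave 564 to 1814 and 453 to 2096 for occlusion, 591 to 3725 and 346 to 3873 for depletion and 1 to 15 for the interaction. Without sham_CON replicate 2 and sham_DE replicate 3 it was 219 in sham_DE against sham_CON. The 2 tMCAO_DE libraries limit what that group can show, and Egr2 has the fewest counts.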
